A study of Mus musculus with 4 samples.

Results

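A set of 10 neuronal adhesion genes was followed in germ cell nuclei of the mouse testis, namely the contactins Cntn3 and Cntn5, the contactin-associated proteins Cntnap2 and Cntnap5a, the IgLON proteins Negr1 and Opcml, the protocadherins Pcdh9 and Pcdh10, Cadm2 and Lrrtm3. They are 10 of the 55357 genes in the deposited tables. They were selected on these same libraries, as leading genes of germ clusters or as lower in Sertoli nuclei of Dhx37-/- mice. Their levels across germ stages and their Sertoli difference are therefore a description, with no test. Nuclei of whole testes of 8-week-old mice were profiled by single-nucleus RNA-seq (10x 3' v3) in 4 libraries, 2 of WT mice and 2 of Dhx37-/- mice, labelled as biological replicates. The Dhx37-/- mice carried floxed Dhx37 alleles (loxP sites around exon 2, C57BL/6 background) and Amh-Cre, a transgene in which the Amh promoter drives the recombinase in Sertoli cells. Germ cells are thus not the targeted cells of this model, and the WT mice were their littermates. The deletion cannot be checked in these counts, which read transcript ends and not exon 2. Dhx37 gave 5, 3, 14 and 15 UMIs in Sertoli nuclei of WT replicates 1 and 2 and Dhx37-/- replicates 1 and 2. The Sertoli totals behind them were unlike, at 575371, 137659, 1251515 and 2199735 UMIs in the same order. Scaled to these totals (CPM, defined below), Dhx37 was at 8.69 and 21.8 CPM in WT replicates 1 and 2. It was at 11.2 and 6.82 CPM in Dhx37-/- replicates 1 and 2, and the genotypes overlapped.

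In neurons these proteins sit at the cell surface and hold membranes together. Contactins and IgLON proteins are immunoglobulin-domain molecules fixed to the membrane by a lipid anchor, CNTNAP proteins are neurexin-like partners that span it, and nonclustered protocadherins are cadherin-type receptors. CADM2 is a synaptic cell adhesion molecule of the immunoglobulin superfamily, and LRRTM3 is a leucine-rich repeat protein of the postsynaptic membrane that binds neurexins. In the testis, germ cells move through mitosis, a long meiotic prophase and the round and elongating spermatid phases while attached to Sertoli cells, and transcription is broad in late meiotic and early haploid nuclei.

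The files identify the genes as Cntn3 (ENSMUSG00000030075), Cntn5 (ENSMUSG00000039488), Cntnap2 (ENSMUSG00000039419), Cntnap5a (ENSMUSG00000070695), Negr1 (ENSMUSG00000040037), Opcml (ENSMUSG00000062257), Pcdh9 (ENSMUSG00000055421), Pcdh10 (ENSMUSG00000049100), Cadm2 (ENSMUSG00000064115) and Lrrtm3 (ENSMUSG00000042846). The selection did not use gene size. In the GENCODE vM21 gene models (GRCm38) the 10 genes span 57.2 kb (Pcdh10) to 2245 kb (Cntnap2), all longer than the median of 17.4 kb of 21951 protein-coding genes, and 7 of the 10 exceed 500 kb. The unspliced RNA in nuclei offers more template in long genes, so levels are compared here within a gene across nuclei and not between genes. Lrrtm3 lies inside Ctnna3 on the other strand, the only protein-coding overlap among the 10 genes. Other gene models on the same strand overlap 7 of the 10 genes, with the most, 24, at Cntnap2, and UMIs in such stretches may be assigned to another model or dropped.

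The start regions of the genes differ in base composition, and 4 of them are shown because they cover that range among genes that are high in spermatids, 2 contactins of round spermatids and the late genes Lrrtm3 and Pcdh10. The sequences are the 250 bases before a RefSeq transcript start in GRCm38.p6, read 5' to 3' on the gene's strand, with CG dinucleotides in capitals. The Cntn3 region (chr6:102464668-102464917, minus strand) has no CG and 26.4% G+C, and that of Cntn5 (chr9:10904727-10904976, minus strand) has 26 CG and 68.4% G+C. Upstream of Lrrtm3 (chr10:64090256-64090505, minus strand) 6 CG were counted, and upstream of Pcdh10 (chr3:45378148-45378397, plus strand) 22 CG.
Cntn3: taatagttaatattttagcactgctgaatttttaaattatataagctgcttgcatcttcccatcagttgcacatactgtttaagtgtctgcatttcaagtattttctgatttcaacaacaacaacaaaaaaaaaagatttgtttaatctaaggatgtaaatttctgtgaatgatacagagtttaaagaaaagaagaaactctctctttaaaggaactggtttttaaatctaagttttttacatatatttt
Cntn5: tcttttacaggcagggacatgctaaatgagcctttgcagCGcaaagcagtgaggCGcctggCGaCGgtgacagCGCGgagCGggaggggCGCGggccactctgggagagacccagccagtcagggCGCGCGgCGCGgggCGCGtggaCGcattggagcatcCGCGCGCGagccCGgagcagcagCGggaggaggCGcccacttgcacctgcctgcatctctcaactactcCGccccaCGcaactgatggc
Lrrtm3: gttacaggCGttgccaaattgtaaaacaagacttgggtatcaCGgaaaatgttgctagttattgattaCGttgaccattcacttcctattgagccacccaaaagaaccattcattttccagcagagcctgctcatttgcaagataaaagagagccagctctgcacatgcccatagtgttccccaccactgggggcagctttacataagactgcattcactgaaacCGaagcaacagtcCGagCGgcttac
Pcdh10: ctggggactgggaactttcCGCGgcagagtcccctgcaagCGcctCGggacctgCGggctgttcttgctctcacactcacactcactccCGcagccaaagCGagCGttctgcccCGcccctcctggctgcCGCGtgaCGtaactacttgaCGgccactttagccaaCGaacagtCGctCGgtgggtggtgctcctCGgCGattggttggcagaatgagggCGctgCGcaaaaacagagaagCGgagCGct
Of all 32851 entries of the RefSeq table, 92.1% hold at least 1 CG in these 250 bases, and the median count is 6. An entry was found for 9 of the 10 genes, with 12 starts in all. The cAMP response element TGACGTCA, searched on both strands, was in none of these starts and in 1.55% of all entries. Its variant TGACGTAA was in the Pcdh10 region and in 0.447% of all entries. These matches describe the letters in the window only.

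The libraries held 51797891 to 75611263 UMIs, and 36907 nuclei were kept, 8271 to 10005 per library with a median of 3307 to 4162 UMIs. Nuclei of at least 2000 UMIs were placed by marker genes, none of which is one of the 10 genes, into gates for spermatogonia (29 to 95 nuclei per library), early meiotic prophase (193 to 613), spermatocytes (938 to 1218), round spermatids (1214 to 2531), elongating spermatids (1480 to 2026) and Sertoli nuclei (22 to 258). Between 19 and 29 barcodes were shared by any 2 libraries. All markers of each list were higher in their own gate than in the other gated nuclei pooled. A gate is a range of marker scores, and 15.5%, 16.6%, 15.9% and 14.8% of early prophase, spermatocyte, round and elongating spermatid nuclei lay within 0.2 of its limit. Levels are UMIs per 1000000 UMIs of the gate (CPM), a measure in which fewer nuclei of a kind within a gate and less RNA per nucleus cannot be told apart. By genes of another lineage, free RNA made up an estimated 15.6% to 21.3% of the UMIs in early prophase, 12.9% to 20.5% in spermatocytes, 10.6% to 19.0% in round spermatids and 13.4% to 24.1% in elongating spermatids. It was highest in WT replicate 1 in the last 3 of these gates and in Dhx37-/- replicate 2 in early prophase. In spermatogonia the estimate was 45.7% in WT replicate 1 and 16.3% to 20.7% in the other 3 libraries. That gate also had a summed round spermatid marker level of 1504 to 2407 CPM over 18 markers beside 1319.9 to 1456 CPM over its own 14.

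Spermatocyte, round and elongating spermatid nuclei, with those between these gates, were also ordered by their marker scores and cut into 10 bins of 2721 nuclei, from spermatocytes in bin 1 to the latest elongating spermatids in bin 10. The position used no adhesion gene, each bin held at least 419 nuclei of each library, and the median depth fell from 3645 to 5392 UMIs in bin 1 to 2975 to 3639.5 in bin 10. Along this order the genes peaked at the start, in the middle or near the end, with several genes sharing peak bins. The CNTNAP, IgLON and protocadherin pairs differed in the gate with the highest level, while both contactins were highest in round spermatids. The centre of a gene, its CPM-weighted mean bin, ran from 3.17 for Cadm2 to 7.30 for Pcdh10.

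**Figure D1:**
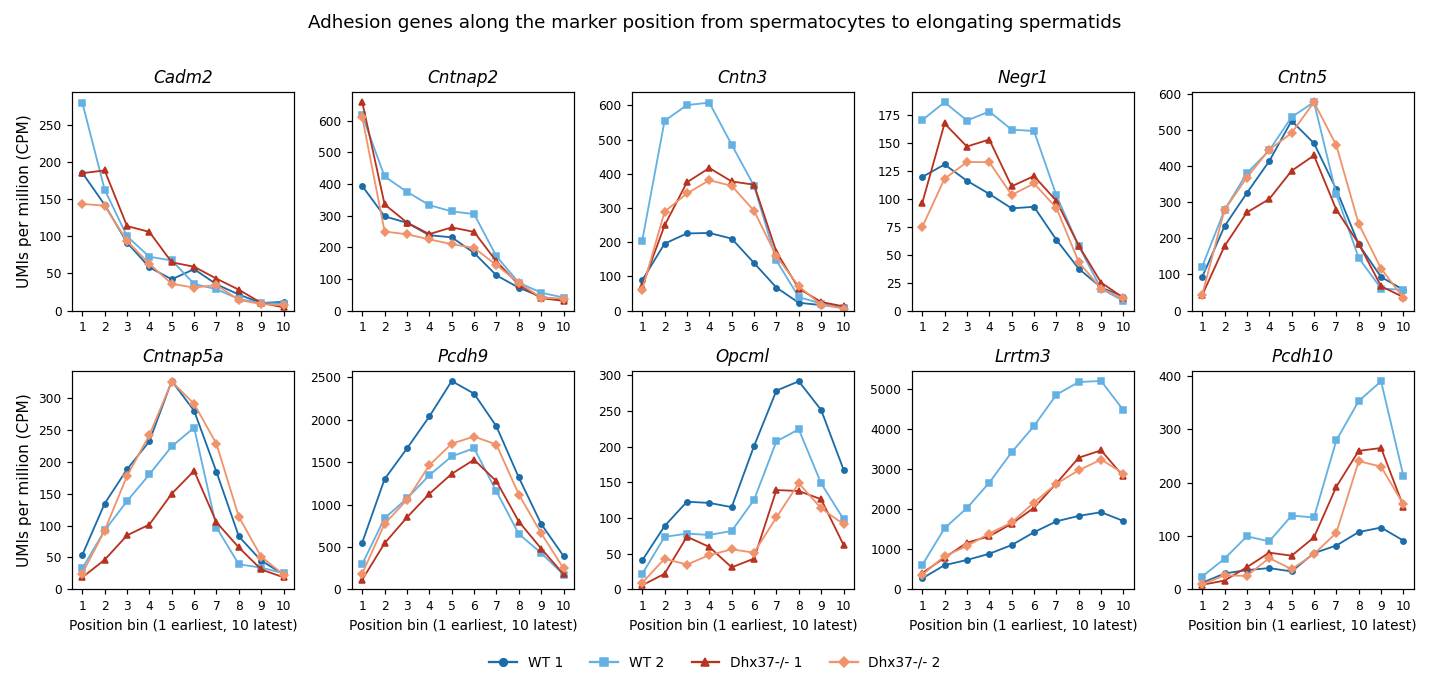
Level (CPM) of each gene in 10 bins of marker position, from spermatocytes (1) to the latest elongating spermatids (10), with 1 line per library (blue WT, red Dhx37-/-). Cadm2 and Cntnap2 are highest at the left, Cntn3, Cntn5, Cntnap5a and Pcdh9 in the middle bins, and Opcml, Lrrtm3 and Pcdh10 at bins 7 to 9.

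Both contactins had their highest mean over libraries in round spermatids. Cntn3 stood at 248 and 631 CPM in WT replicates 1 and 2 and 470.3 and 368 CPM in Dhx37-/- replicates 1 and 2 in round spermatids. All 4 libraries peaked in bin 4, at 19.4 to 76.1 times the lowest bin of the same library, and the level in elongating spermatids was 10.8 to 18.9 CPM. These levels include free RNA, which itself held 52.4 and 76.6 CPM of Cntn3 in WT and 19.5 and 30.8 CPM in Dhx37-/- libraries. Its part in the low elongating level and in the folds was not taken off. WT replicates 1 and 2 are the ends of the round spermatid range, with both Dhx37-/- libraries between them. Cntn5 was steadier between libraries, with 531 and 602 CPM in WT replicates 1 and 2 and 472 and 591 CPM in Dhx37-/- replicates 1 and 2 in round spermatids, and peaked later, in bins 5 to 6. It kept 48.5 to 85.8 CPM in elongating spermatids. In spermatocytes Cntn5 lay at 52.5 to 131 CPM and Cntn3 at 75.2 to 223 CPM. The round spermatid range of Cntn3 overlapped those of spermatogonia, 90.5 to 267 CPM, and early prophase, 43.7 to 365 CPM.

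The CNTNAP genes occupied different stages. Cntnap2, known from the juxtaparanodes of myelinated axons, was a spermatocyte gene, with 341 and 543 CPM in WT replicates 1 and 2 and 567 and 529 CPM in Dhx37-/- replicates 1 and 2. WT replicate 1 was the low library, and the other 3 lay close together. Its level was 222 to 354 CPM in round spermatids and 37.8 to 50.4 CPM in elongating spermatids, and every library peaked in bin 1. Early prophase nuclei already held 144 to 393 CPM, a range that overlapped that of round spermatids. With WT replicate 1 at 341 CPM, the spermatocyte range overlapped both of these gates. Cntnap5a was low in spermatocytes, at 20.8 to 56.3 CPM, and was higher in round spermatids, at 333 and 248 CPM in WT replicates 1 and 2 and 182 and 326 CPM in Dhx37-/- replicates 1 and 2. The genotypes overlapped there, since Dhx37-/- replicate 1 was lowest and Dhx37-/- replicate 2 second highest. By the elongating gate Cntnap5a was at 23.7 to 35.5 CPM. Its round spermatid range overlapped that of spermatogonia, 50.2 to 219 CPM.

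The IgLON pair lay apart. Negr1, a regulator of neurite growth, was broad and early, with 119.7 and 168 CPM in WT replicates 1 and 2 and 108 and 78.8 CPM in Dhx37-/- replicates 1 and 2 in spermatocytes. In round spermatids it had 107 and 187 CPM in WT replicates 1 and 2 and 138 and 118 CPM in Dhx37-/- replicates 1 and 2. These ranges overlapped, and both were above elongating spermatids, at 16.2 to 20.2 CPM. By means over the germ gates it was the only one of the 10 genes to be highest in spermatogonia, at 73.3 to 304 CPM, and Sertoli nuclei held 71.9 to 305 CPM. Among the other somatic gates Negr1 was at 295 to 619 CPM in macrophages, 218 to 370 CPM in fibroblasts and 207 to 245 CPM in peritubular myoid nuclei, and at 57.3 to 106 CPM in endothelial and 4.81 to 14.7 CPM in Leydig nuclei. Opcml, the opioid-binding protein/cell adhesion molecule-like gene, was highest in elongating spermatids among the germ gates. It stood at 226 and 155 CPM in WT replicates 1 and 2 and 103 and 103 CPM in Dhx37-/- replicates 1 and 2 there, with both WT libraries above both Dhx37-/- libraries. In round spermatids it was at 35.0 to 79.2 CPM, and it peaked in bins 7 to 8. Spermatogonia, at 32.4 to 169.5 CPM of Opcml, and the endothelial gate, at 131 to 209 CPM, overlapped the elongating spermatid range.

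Pcdh9 and Pcdh10 were separated as well. Pcdh9 was at 2413 and 1651 CPM in WT replicates 1 and 2 and 1670.3 and 1839.9 CPM in Dhx37-/- replicates 1 and 2 in round spermatids, with WT replicate 1 above 3 similar libraries. It peaked in bins 5 to 6, at 6.26 to 13.5 times the lowest bin, and was at 323 to 707 CPM in elongating spermatids. In spermatocytes Pcdh9 was 729.9 and 434 CPM in the WT libraries against 171 and 302 in the Dhx37-/- libraries. Pcdh10 was the latest of the 10 genes. It was at 15.4 to 82.0 CPM in spermatocytes, 21.3 to 59.3 CPM in round spermatids and 108 and 306 CPM in WT replicates 1 and 2 and 218 and 208 CPM in Dhx37-/- replicates 1 and 2 in elongating spermatids. The lowest elongating value, of WT replicate 1, was above every round spermatid value. The endothelial gate held 76.8 to 226 CPM of Pcdh10, which overlapped the elongating range.

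Cadm2 and Lrrtm3 have no relative among the 10 genes. Cadm2 was highest at the start of the order, with 172 and 248 CPM in WT replicates 1 and 2 and 188 and 151 CPM in Dhx37-/- replicates 1 and 2 in spermatocytes, with 33.7 to 61.1 CPM in round spermatids and 8.16 to 12.4 CPM in elongating spermatids. The spermatocyte range overlapped that of no other gate. Free RNA, not taken off here, held 50.9 and 40.2 CPM of Cadm2 in WT and 19.2 and 20.0 CPM in Dhx37-/- libraries. Lrrtm3 was highest near the end, with peaks in bin 9 in every library. In elongating spermatids it stood at 1832 and 4951 CPM in WT replicates 1 and 2 and 3184 and 3082 CPM in Dhx37-/- replicates 1 and 2. This range overlapped that of round spermatids, 949 to 2916 CPM, with WT replicate 1 the lowest and WT replicate 2 the highest library in both gates. It also overlapped those of spermatogonia, 550 to 3176 CPM, endothelial nuclei, 943 to 3801 CPM, and Sertoli nuclei, 375 to 2070 CPM.

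**Figure D2:**
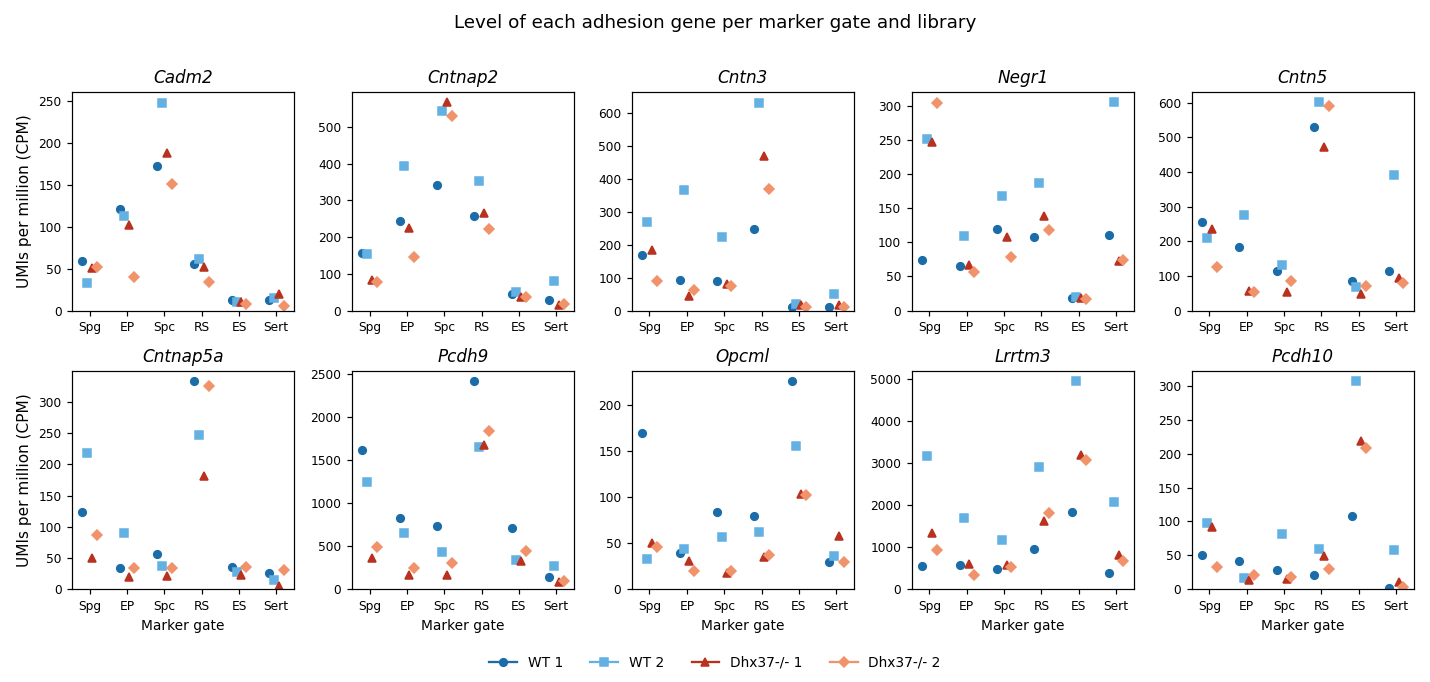
Level (CPM, linear axes from 0) of each gene in spermatogonia (Spg), early prophase (EP), spermatocytes (Spc), round spermatids (RS), elongating spermatids (ES) and Sertoli nuclei (Sert), with 1 point per library (blue WT, red Dhx37-/-). The gate with the highest points differs between genes, and WT replicate 1 and WT replicate 2 are often the ends of the spread.

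Placed by their centres, the genes came in the order Cadm2 (3.17 ± 0.20 (SD, n = 4 libraries)), Cntnap2 (3.68 ± 0.09), Cntn3 (4.19 ± 0.27), Negr1 (4.22 ± 0.17), Cntn5 (5.09 ± 0.15), Cntnap5a (5.16 ± 0.22), Pcdh9 (5.37 ± 0.20), Opcml (6.71 ± 0.17), Lrrtm3 (6.82 ± 0.10) and Pcdh10 (7.30 ± 0.28). The library ranges of neighbours overlapped for Cntn3 and Negr1, for Cntn5 and Cntnap5a, for Cntnap5a and Pcdh9, and for Opcml and Lrrtm3. Within each library Cntnap5a still lay before Pcdh9. Their centres were 4.98 and 5.25 in WT replicate 1 and 4.97 and 5.14 in WT replicate 2. In Dhx37-/- replicates 1 and 2 they were 5.40 and 5.53, and 5.28 and 5.54. The rest of these pairs changed order between libraries and have no fixed order. Neighbours outside these pairs did not overlap. In the Dhx37-/- libraries the mean centre was later than in the WT libraries for 9 of the 10 genes, by 0.164 (Lrrtm3) to 0.457 bins, and for Cntnap2 it was earlier, by 0.146. The nuclei of the Dhx37-/- libraries also lay later on the marker scale, with a mean position of 1.09 and 1.05 against 0.978 and 0.979 in WT (0 spermatocyte, 2 elongating spermatid), and the part of this in the shift was not tested. With 2 libraries per genotype an exact permutation test cannot go below p = 0.33.

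**Figure D3:**
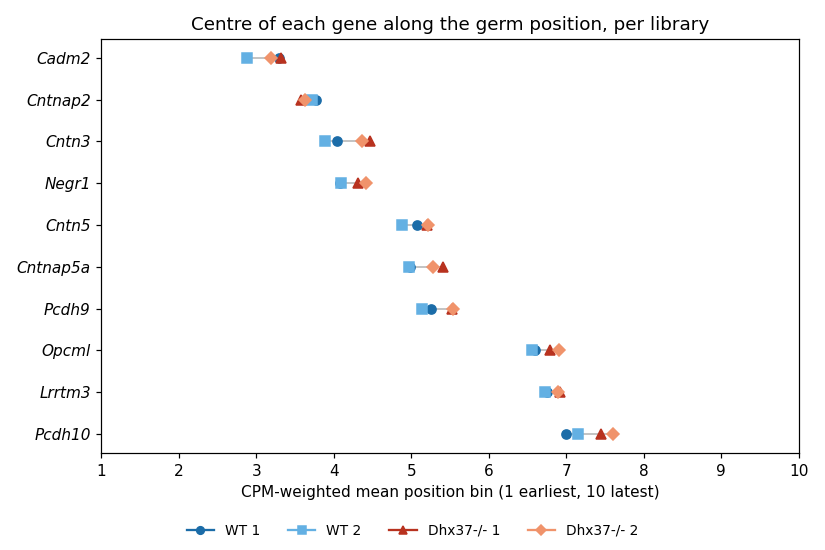
CPM-weighted mean position bin of each gene (x axis, 1 earliest to 10 latest) in each library, with the grey line from the lowest to the highest library. The genes span 3.17 to 7.30 in their means, and 4 pairs of neighbours overlap.

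After each nucleus was thinned to 2000 UMIs, Cntnap2 was found in 41.3% to 52.0% of spermatocyte nuclei per library, Pcdh9 in 68.7% to 75.0% and Cntn5 in 42.4% to 49.9% of round spermatid nuclei, and Lrrtm3 in 84.4% to 93.9% of elongating spermatid nuclei. Leydig nuclei, taken as the background of free RNA, gave 2.09% to 6.95% for Cntnap2, 3.80% to 15.0% for Pcdh9, 2.67% to 6.33% for Cntn5 and 12.8% to 23.3% for Lrrtm3 at the same depth. Before thinning, at median depths of 4813 to 6655 UMIs in Leydig and 3770.5 to 4610.0 UMIs in round spermatid nuclei, the Pcdh9 shares were 10.8% to 31.6% and 78.9% to 84.0%. Opcml shares overlapped with those of Leydig nuclei, at 7.58% to 14.9% in elongating spermatids and 4.53% to 13.9% in Leydig nuclei. In both gates WT replicate 1 was the highest library, and this share alone does not set elongating spermatids apart from Leydig nuclei. The Opcml level in Leydig nuclei was 24.2 to 85.9 CPM, below its elongating spermatid range. Its Leydig mean was 73.0 CPM in WT and 26.9 CPM in Dhx37-/- libraries. Free RNA itself held less, 70.1 and 40.0 CPM in WT and 13.7 and 17.2 CPM in Dhx37-/- libraries. Leydig nuclei are therefore not a background of free RNA alone for this gene. For Lrrtm3 the Leydig mean was 145 CPM in WT and 218 CPM in Dhx37-/- libraries. Its free RNA level was 311 and 540.2 CPM in WT and 135 and 230.5 CPM in Dhx37-/- libraries. The part of free RNA in Leydig nuclei was not estimated, so the Leydig shares of the other genes may also hold more than free RNA.

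Other somatic gates held more of several of these genes than Leydig nuclei. In the endothelial gate, of 57 to 97 nuclei per library at a median depth of 3360 to 4897 UMIs, the thinned shares were 35.6% to 66.7% for Pcdh9, 40.6% to 89.5% for Lrrtm3, 12.5% to 40.2% for Cntn5, 15.6% to 24.7% for Cntnap2, 9.38% to 22.7% for Pcdh10 and 8.47% to 13.5% for Opcml. The Lrrtm3, Pcdh10 and Opcml shares there overlapped those of elongating spermatids, which were 15.0% to 22.3% for Pcdh10. Fibroblasts had Lrrtm3 in 41.4% to 51.0% of nuclei and Negr1 in 22.4% to 36.5%, and macrophages had Negr1 in 29.6% to 50.4%. The median endothelial nucleus also held 1991 CPM of the 18 round spermatid markers, more than the 1041 CPM of its own 7 markers. The round spermatid markers were at 366 CPM in Leydig and 4382 CPM in round spermatid nuclei. The part of germ RNA in the adhesion gene levels of the endothelial gate was not tested.

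By the median over the 10 genes, the WT libraries differed from each other more than the Dhx37-/- libraries did. The median fold between the WT libraries was 1.56 in spermatocytes, 1.42 in round spermatids and 1.39 in elongating spermatids. Between the Dhx37-/- libraries it was 1.22, 1.23 and 1.21. Single genes went the other way, Cntn5 and Cntnap5a in all 3 gates, Pcdh9 in spermatocytes, Cadm2 in round and elongating spermatids and Negr1 in elongating spermatids. In spermatocytes Cntn5 was 1.15 times as high in WT replicate 2 as in WT replicate 1 and 1.64 times as high in Dhx37-/- replicate 2 as in Dhx37-/- replicate 1. The direction depended on the gene. Lrrtm3 was 3.07 times and Pcdh10 2.78 times as high in WT replicate 2 as in WT replicate 1 in round spermatids, whereas Pcdh9 was 0.684 times and Opcml 0.779 times as high.

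Whether the genes differed between genotypes in germ nuclei was tested on UMI counts summed per library and gate. The selection came from the same libraries and used the genotypes in Sertoli nuclei. It did not compare them in germ nuclei. Cadm2, however, led a germ cluster of mostly Dhx37-/- nuclei, so its values are given with no p and medians also without it. Sertoli and germ sums of a library also share its free RNA, in which all 10 genes were higher in both WT libraries. The germ tests are thus not fully apart from the selection, and the part of this was not tested. In early prophase 4 of the 10 genes were lower in Dhx37-/- nuclei, namely Cntn5, Cntn3, Pcdh9 and Lrrtm3, and none was higher. In the other 4 germ gates none of the 10 genes passed. The 4 early prophase calls stand against a background of 11.3% of 13885 tested genes called lower, 6.53% called higher and 17.8% called in either direction, so much of that gate differed between the genotypes. The median over the 10 genes was log2 -1.07, and -1.24 over the 9 without Cadm2, beside 0.01 over all genes tested, and all 10 were below 0. By edgeR's quasi-likelihood test, Cntn5 differed by log2 -2.16 ± 0.31 (SE), 95% interval -2.83 to -1.49, adjusted p = 0.0057. Its levels were 184 and 277 CPM in WT replicates 1 and 2 and 56.5 and 53.4 CPM in Dhx37-/- replicates 1 and 2, with both WT libraries above both Dhx37-/- libraries.

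Pcdh9 differed by log2 -1.92 ± 0.29 (SE), 95% interval -2.55 to -1.28, adjusted p = 0.0057 in early prophase, with 824 and 658 CPM in WT and 169 and 243 CPM in Dhx37-/- libraries. The genotypes did not overlap for this gene either, nor for 4 others of the 10 besides Cntn5, beside 25.5% of 21431 genes of at least 10 UMIs with both WT libraries higher. For Cntn3 the difference was log2 -2.17 ± 0.50 (SE), 95% interval -3.25 to -1.09, adjusted p = 0.016, but its level of 365 CPM in WT replicate 2 was far above the 93.5 CPM of WT replicate 1 and the 43.7 and 63.3 CPM of the Dhx37-/- libraries. Without WT replicate 2 the Cntn3 difference was log2 -0.83 (edgeR adjusted p = 0.11), and DESeq2 did not call it (adjusted p = 0.1). Lrrtm3 had the same dependence, with log2 -1.39, adjusted p = 0.041 over all libraries and log2 -0.36 (edgeR adjusted p = 0.41) without WT replicate 2. Its levels were 574 and 1695 CPM in WT replicates 1 and 2 and 596 and 343 CPM in Dhx37-/- replicates 1 and 2, and the genotypes overlapped. Cntn5 and Pcdh9 were called under each of the 14 settings, Cntn3 under 12 and Lrrtm3 under 9. Cntnap2 (log2 -0.91, adjusted p = 0.059), Cntnap5a (log2 -1.24, adjusted p = 0.084) and Opcml (log2 -0.85, adjusted p = 0.14) did not pass in the edgeR fit, nor did Negr1 and Pcdh10, and Cadm2 was at log2 -0.86. Lower levels were not particular to germ nuclei. By mean CPM, with no test, Cntn5 was at log2 -1.33 in Leydig, -1.03 in macrophage, -0.96 in endothelial and -2.45 in fibroblast nuclei. Pcdh9 was at -0.97, -1.07, -0.39 and -1.51 there. In peritubular myoid nuclei Cntn5 was at 0.38 and Pcdh9 at 0.13. Over these somatic gates Cntn3 ran from -2.20 to 0.41 and Lrrtm3 from -0.80 to 0.58.

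Markers of other stages and of Sertoli and Leydig cells also differed between the genotypes in this gate, in both directions. The summed level of the 18 round spermatid markers in the early prophase gate, all 18 of them detected in every library, was 1913 and 2343 CPM in WT and 1429 and 1322 CPM in Dhx37-/- libraries. Of these markers 5 passed the test as lower and 0 as higher in Dhx37-/- nuclei, with a median of log2 -0.53. The gate's own 14 markers summed to 3062 and 2651 CPM in WT and 3935 and 4427 CPM in Dhx37-/- libraries, with 5 called higher and 1 called lower. The 14 spermatocyte markers were also more abundant in Dhx37-/- libraries, at 1461 and 1443 CPM in WT and 2276 and 2461 CPM in Dhx37-/- libraries, with 2 called higher and 0 lower. The 14 elongating spermatid markers summed to 7391 and 7016 CPM in WT and 10438 and 8154 CPM in Dhx37-/- libraries, with 1 called in each direction. WT replicates 1 and 2 gave 193 and 202 early prophase nuclei and Dhx37-/- replicates 1 and 2 gave 269 and 613, at median depths of 3328 to 4640.0 UMIs. Sertoli markers summed to 171 and 170.0 CPM in WT, with Wt1 at 0 in WT replicate 2, and 519.9 and 405 CPM in Dhx37-/- libraries, with 14 of 14 detected in the other 3 libraries. Leydig markers, all 6 detected, summed to 48.2 and 52.1 CPM in WT and 121 and 115 CPM in Dhx37-/- libraries. The part of these markers, of depth and of nucleus numbers in the 4 calls was not tested. When the estimated free RNA was subtracted, 3 of the 10 genes were called, and Lrrtm3 was not, beside 1805 of 12700 tested genes called, 1101 of them lower. Cadm2 was called under 2 of the 14 settings in this gate, and it carries no weight in counts of calls because of how it was selected. With a stricter gate, which asks for a larger lead of the early prophase score, 5 of the 10 genes were called. Cntn3, Cntn5, Pcdh9 and Cntnap2 were among them and Lrrtm3 was not, beside 1794 of 11086 tested genes called, 1233 of them lower. Over the 14 settings, those without 1 library included, the log2 difference ran from -2.54 to -1.81 for Cntn5 and from -2.23 to -1.50 for Pcdh9. It ran from -2.74 to -0.83 for Cntn3 and from -1.87 to -0.36 for Lrrtm3.

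In spermatocytes the edgeR test called 0 of 20706 genes (0%), while 5065 genes had an unadjusted p under 0.05 and DESeq2 called 898. Of the 10 genes, 7 had an unadjusted p under 0.05 and all 7 of these were lower in Dhx37-/- nuclei. Opcml had the lowest p, with 84.0 and 56.7 CPM in WT replicates 1 and 2 and 18.2 and 20.0 CPM in Dhx37-/- replicates 1 and 2 and a difference of log2 -1.94 ± 0.30 (SE), 95% interval -2.61 to -1.26, adjusted p = 0.081. Both WT libraries were above both Dhx37-/- libraries. DESeq2 gave Opcml log2 -1.94 with an adjusted p of 6.6e-05, and the adjusted p ranged from 2.2e-09 to 0.17 over the 14 settings, under 0.05 in 8 of them. Pcdh10 (log2 -1.72, adjusted p = 0.087) and Pcdh9 (log2 -1.36, adjusted p = 0.094) also stayed above the threshold in edgeR and passed in DESeq2. For 7 of the 10 genes both WT libraries were above both Dhx37-/- libraries, beside 25.4% of 26993 genes of at least 10 UMIs. Sertoli markers summed to 150.2 and 149 CPM in WT and 333 and 251 CPM in Dhx37-/- spermatocytes, with all 14 detected, and the spermatocyte markers to 2334 and 2299.8 CPM against 2906 and 3042 CPM. Early prophase markers were at 1382 and 1336 CPM in WT and 1717 and 1998 CPM in Dhx37-/- spermatocytes, elongating spermatid markers at 6568 and 6710 CPM against 10132 and 7903 CPM and Leydig markers at 58.9 and 51.7 CPM against 144 and 129 CPM, while round spermatid markers overlapped. Within this gate the Dhx37-/- nuclei lay earlier on the marker scale, with a mean position of 0.364 and 0.343 against 0.411 and 0.406 in WT, opposite to the shift over all ordered nuclei, and Opcml, Pcdh10 and Pcdh9 are all higher later in the order. The limit of 5000 detected genes also touched the genotypes unequally, since it left out 85 and 149 spermatocyte nuclei of the Dhx37-/- libraries and 1 and 6 of the WT libraries. Without it edgeR called 2744 of 21324 genes, 1159 of them lower, and 5 of the 10 genes, Opcml, Pcdh10, Cntn5, Pcdh9 and Cntn3, all lower. The part of markers, position and depth in these differences was not tested. Cntnap2, a spermatocyte gene, was at log2 0.28 with a 95% interval of -0.34 to 0.90. The spermatocyte levels of Cadm2, given above, carry no test.

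In round spermatids, where 4 of the 10 genes had their highest germ level, the test called 2 of 21068 genes (0.00949%), neither of them among the 10. The median difference was log2 -0.24 over the 10 genes and -0.23 over the 9 without Cadm2, beside -0.05 over all genes tested. Cntn5 was at log2 -0.13, adjusted p = 0.93 with a 95% interval of -0.67 to 0.41, and for Pcdh9 the interval was -0.91 to 0.40. No difference was detectable for either gene with this number of libraries. The widest interval was that of Lrrtm3, -1.20 to 0.80, the gene with the WT libraries furthest apart. Among the 10 genes only Opcml had an interval that lay below 0, -1.54 to -0.46, with levels of 79.2 and 61.7 CPM in WT replicates 1 and 2 and 35.0 and 37.7 CPM in Dhx37-/- replicates 1 and 2 and an edgeR adjusted p of 0.73. It was one of the 2 genes, with Cadm2, whose WT libraries were both above the Dhx37-/- libraries, beside 16% of 27306 genes. The Dhx37-/- nuclei of this gate lay later, with a mean position of 1.001 and 1.003 against 0.957 and 0.955 in WT. Elongating spermatid markers summed to 5752 and 6132 CPM in WT and 9514 and 8451 CPM in Dhx37-/- libraries. Sertoli markers were at 143 and 122 CPM against 270 and 217 CPM and Leydig markers at 37.5 and 33.6 CPM against 91.2 and 82.0 CPM. Their part was not tested.

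Elongating spermatids gave 0 calls of 18998 genes (0%), with 1550 genes at an unadjusted p under 0.05 and 14 calls by DESeq2. Opcml was again the lowest of the 10, at log2 -0.95 ± 0.24 (SE), 95% interval -1.50 to -0.40, adjusted p = 0.6. The Dhx37-/- nuclei of this gate lay later, with a mean position of 1.55 and 1.54 against 1.49 and 1.49 in WT. Its own markers summed to 17298 and 20595 CPM in WT and 27848 and 24974 CPM in Dhx37-/- libraries and Sertoli markers to 172 and 140 CPM against 332 and 251 CPM, and their part was not tested. For 3 genes (Opcml, Cntnap2 and Cadm2) both WT libraries were higher there, beside 15.1% of 25105 genes of at least 10 UMIs. Pcdh10, the latest gene, was at log2 -0.02 with a 95% interval of -0.97 to 0.92. In spermatogonia edgeR called 0 of 6615 genes (0%), with 1450 at an unadjusted p under 0.05 and 59 calls by DESeq2. Pcdh9 had the lowest adjusted p there, at log2 -1.85, adjusted p = 0.073, and DESeq2 called it (adjusted p = 1.0e-04). The round spermatid markers of that gate were 2282 and 2407 CPM in WT and 1598 and 1504 CPM in Dhx37-/- libraries. Early prophase markers went the other way, at 1375 and 1467 CPM in WT and 2163 and 2401 CPM in Dhx37-/- libraries, as did Sertoli markers, at 234 and 146 CPM in WT and 490 and 416 CPM in Dhx37-/- libraries. Elongating spermatid markers overlapped, at 7979 and 10107 CPM in WT and 13093 and 8452 CPM in Dhx37-/- libraries, and the part of these markers was not tested. The labels call the libraries biological replicates without naming animals, so the p-values measure the spread between these libraries.

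**Figure D4:**
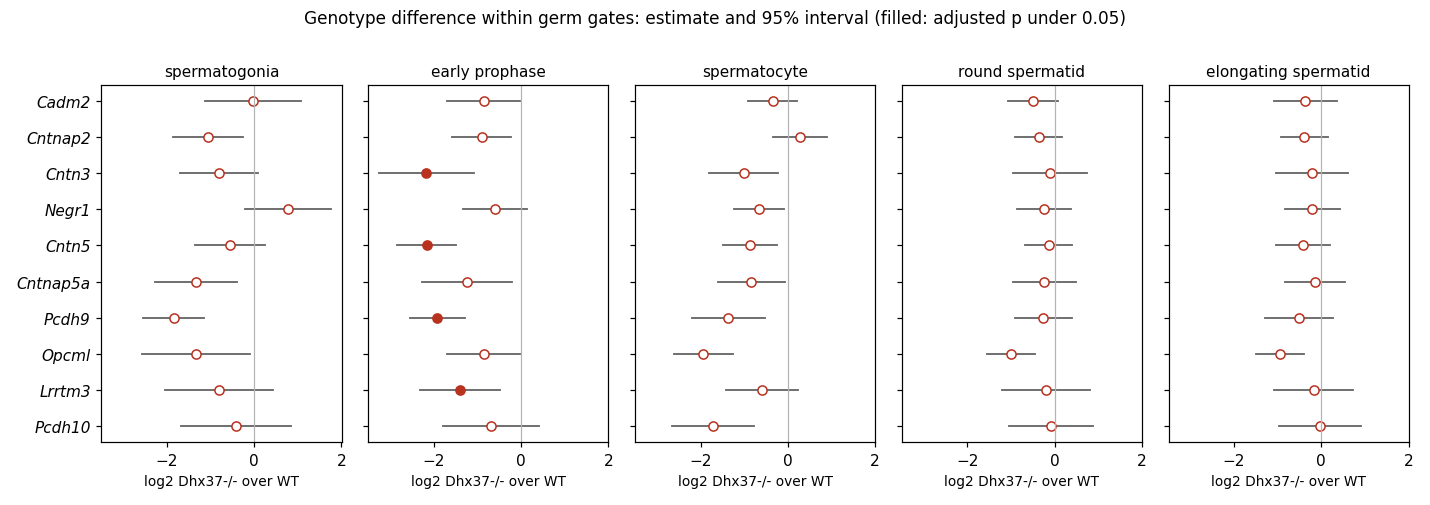
Difference between Dhx37-/- and WT nuclei (log2, x axis) for each gene in 5 germ gates, with the 95% interval from the edgeR fit of 2 against 2 libraries and filled points where the adjusted p is under 0.05. The 4 filled points, Cntn3, Cntn5, Pcdh9 and Lrrtm3, are all in early prophase and all left of 0.

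In Sertoli nuclei the WT against Dhx37-/- difference had chosen some of the genes, so it is described only. Sertoli nuclei were few in the WT libraries, 77 and 22, against 163 and 258 in the Dhx37-/- libraries. The limit of 5000 detected genes left out 6 and 1 Sertoli nuclei of the WT libraries and 57 and 66 of the Dhx37-/- libraries, and without it 8 of the 10 genes had a lower mean in Dhx37-/- nuclei. All 14 Sertoli markers were detected in each library. Lrrtm3 was at 375 and 2070.3 CPM in WT replicates 1 and 2 and 824 and 678 CPM in Dhx37-/- replicates 1 and 2. The Dhx37-/- libraries lay between the WT libraries. Cntn5 was 66 UMIs, 115 CPM, exact Poisson 95% interval 88.8 to 146, in WT replicate 1, and 54 UMIs, 392 CPM, exact Poisson 95% interval 295 to 512, in WT replicate 2. The Dhx37-/- libraries held 93.5 and 80.0 CPM of Cntn5. Negr1 gave 111 and 305 CPM in WT replicates 1 and 2 and 71.9 and 74.1 CPM in Dhx37-/- replicates 1 and 2. With free RNA included, both genes, with Pcdh9 and Cntnap2, were higher in both WT libraries than in either Dhx37-/- library, beside 15.2% of 17611 genes of at least 10 UMIs. For these genes, however, WT replicate 2 with its 22 nuclei was far above the other 3 libraries. Without it the difference between mean levels (log2 of Dhx37-/- over WT, 1 CPM added to each) was -0.40 for Cntn5, from -1.54, and -0.60 for Negr1, from -1.50. Lrrtm3 turned from -0.70 to 1.00. Pcdh10 rested on 1 UMI in WT replicate 1 and 8 UMIs in WT replicate 2. The Poisson intervals cover counting error only.

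Free RNA touches these low counts. From protamine and transition protein transcripts, which Sertoli cells do not make, it was estimated at 8.57% to 15.4% of Sertoli UMIs. For Pcdh9 in WT replicate 1, 76.4% of its 146 CPM would come from free RNA at that share, and in WT replicate 2 8.42%. In Dhx37-/- replicates 1 and 2 it was 8.66% of 88.7 CPM and 16.5% of 91.4 CPM. For Cntnap2 the estimate was 72.0% of 27.8 CPM in WT replicate 1, 12.9% in WT replicate 2 and 33.9% of 15.2 and 17.7 CPM in the Dhx37-/- libraries. The place of WT replicate 1 above the Dhx37-/- libraries is thus not apart from free RNA for Pcdh9 and Cntnap2. In WT replicates 1 and 2 the same estimate for Cntn5 was 17.8% and 2.00%, and for Negr1 5.66% and 1.35%. Of the 10 genes, 9 had a lower mean in Dhx37-/- Sertoli nuclei over all libraries, 7 after the free RNA was subtracted, and 5 when WT replicate 2 was left out. Opcml was the gene with a higher mean, at 29.5 and 36.3 CPM in WT replicates 1 and 2 and 57.5 and 29.5 CPM in Dhx37-/- replicates 1 and 2. Round spermatid markers in the Sertoli gate, all 18 detected, summed to 416 and 603 CPM in WT and 637 and 523 CPM in Dhx37-/- libraries.

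**Figure D5:**
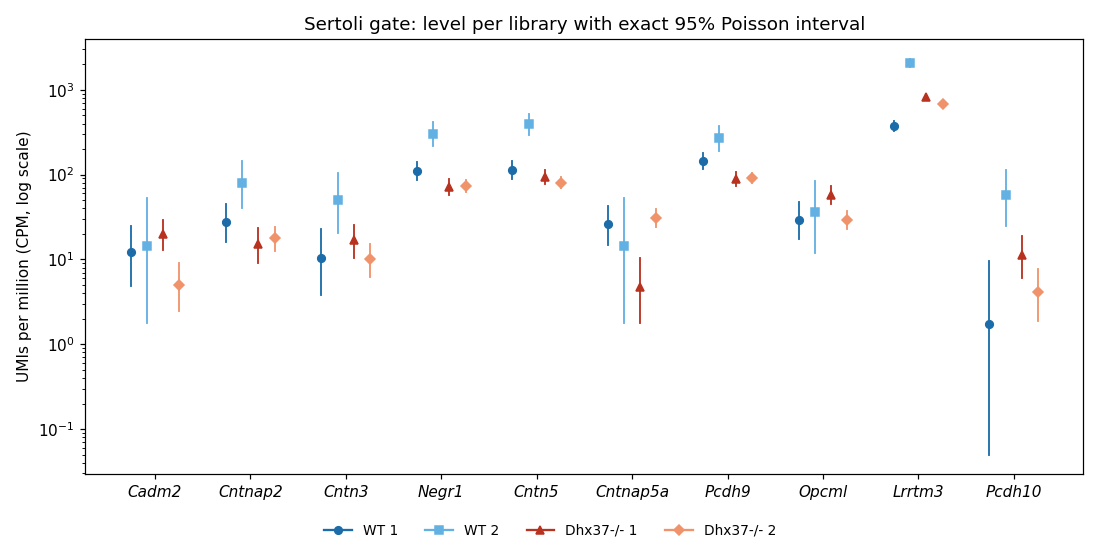
Level (CPM, log axis) of each gene in Sertoli nuclei of each library, with exact 95% Poisson intervals for counting error. WT replicate 2, with 22 nuclei, is the highest point for Cntn3, Cntn5, Negr1, Pcdh9, Pcdh10, Cntnap2 and Lrrtm3, and its intervals are the widest for most genes.

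The level of the transcripts inside and outside nuclei was compared between all kept nuclei and free RNA, the pooled UMIs of barcodes ranked 45000 to 90000, in the same 4 libraries. The genes had been selected as leading genes of these nuclei, which favours a lower level in free RNA, so their values are a description with no test. All 10 genes were lower in free RNA, beside 36.8% of 28780 tested genes called lower, 30.7% called higher and 67.4% called in either direction, and nothing is read from that count. The differences ran from log2 -2.37 for Pcdh10 and -2.36 for Lrrtm3 to -0.82 for Cadm2 and -0.79 for Cntnap5a. Lrrtm3 was at 1022 and 2999.7 CPM in WT replicates 1 and 2 and 1685 and 1602 CPM in Dhx37-/- replicates 1 and 2 in nuclei and at 311 and 540.2 CPM in WT replicates 1 and 2 and 135 and 230.5 CPM in Dhx37-/- replicates 1 and 2 in free RNA. The free RNA of WT replicate 1 was the richest in Pcdh9, at 723 CPM, beside 229, 80.9 and 176 CPM in WT replicate 2 and Dhx37-/- replicates 1 and 2. By genotype, all 10 genes were higher in the free RNA of both WT libraries than in that of either Dhx37-/- library, beside 30.5% of 27614 genes of at least 10 UMIs.

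The 10 genes were set beside 56 other neuronal adhesion genes of the same and related families, among them other contactins, CNTNAP and IgLON genes, protocadherins, neurexins, neuroligins, L1 and NCAM proteins, teneurins and latrophilins. Of these, 38 reached 20 CPM in at least 1 germ gate on average, and they were highest in elongating spermatids (16), round spermatids (10), spermatocytes (6), spermatogonia (5) or early prophase (1). In early prophase 4 of 38 tested were called higher and 10 lower in Dhx37-/- nuclei by edgeR. Beside them, 6.53% of all 13885 tested genes were called higher and 11.3% lower. The median was log2 -0.95, beside 0.01 over all genes tested. The lower ones were led by the contactin Cntn6 (log2 -2.34, adjusted p = 0.0057), Dscam, a receptor of neuronal self-avoidance (log2 -2.05, adjusted p = 0.0068), and Ncam1 (log2 -1.98, adjusted p = 0.018). Flrt3 (log2 2.42, adjusted p = 0.016), Sdk1 (log2 1.37, adjusted p = 0.03) and the IgLON gene Ntm (log2 1.21, adjusted p = 0.042) led those that were higher. In spermatogonia, spermatocytes, round and elongating spermatids none of them passed.

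In free RNA, 36 of 51 of these other genes were called lower and 2 higher than in nuclei. Beside them, 36.8% of all 28780 tested genes were called lower and 30.7% higher. The median was log2 -1.08, beside -0.19 over all genes tested. The lower ones were led by Lrrc4b (log2 -2.17, adjusted p = 3.5e-07), Lrrtm2 (log2 -1.98, adjusted p = 0.0023) and Cntnap5b (log2 -1.88, adjusted p = 6.4e-06). Ncam2 (log2 1.15, adjusted p = 4.4e-04) and Chl1 (log2 0.46, adjusted p = 0.024) were the genes higher in free RNA.

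For each of the 10 genes, the gene with the most similar pattern was sought among 14076 others that reached 20 CPM in at least 1 gate, by Pearson's r of log2(CPM + 1) over 24 values, 6 gates in 4 libraries. These values share libraries and gates, so r is a description. Pcdh9 was most like the giant cadherin gene Fat3 (r = 0.98), Cntn3 most like Ugt2b34 (r = 0.98), Cntnap2 most like Fank1 (r = 0.96), Negr1 most like Erap1 (r = 0.92) and Opcml most like Arhgap42 (r = 0.88). The nearest genes of the other 5 were gene models without a functional name, Gm32511 for Cadm2 (r = 0.97), Gm15762 for Cntnap5a (r = 0.96), Gm10118 for Lrrtm3 (r = 0.95), Gm35520 for Pcdh10 (r = 0.93) and Gm26535 for Cntn5 (r = 0.91).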

How the data were processed

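Nuclei of 4 testis libraries were measured by 10x 3' single-nucleus RNA-seq. The authors deposited raw UMI counts per gene and barcode, made with Cell Ranger. The file headers name cellranger-7.2.0, the study's methods name mm39 and the submitters' processing notes name GRCm38/mm10, so the build is not settled and gene positions here come from GRCm38 tables.

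Barcodes were called as nuclei by an EmptyDrops-like test against free RNA and filtered on 3 limits, 500 to 5000 detected genes, no fewer than 500 UMIs and no more than 25% of UMIs from mitochondrial genes. The upper gene limit left out 13 and 15 nuclei of the WT and 204 and 302 of the Dhx37-/- libraries. Nuclei of at least 2000 UMIs were gated by marker scores (lead of 0.5 SD over the next class). Gates with somatic, spermatogonial and early prophase nuclei also needed 3 detected markers and more marker UMIs than a free RNA share of 30% gives (Poisson p under 0.001). Doublets were kept, and leaving out those marked by Scrublet was an alternative. The 10 genes, the gene lists and the tests were chosen with earlier results of these data known, and the limits of the gates after seeing the data.

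UMI counts were summed per library and gate and tested with edgeR 4.0.16 (quasi-likelihood, TMM, filterByExpr, Benjamini-Hochberg over all genes tested), with free RNA against nuclei blocked by library. DESeq2 1.42.0, DESeq2 size factors, no count filter, a replicate block, leaving out each library, a stricter gate, no upper gene limit, doublet removal and free RNA subtraction were alternatives. All 10 genes are named in every gate, other adhesion genes where called, at most 3 per direction by fold change, and for each gene the 1 most similar gene. In groups of 4 libraries, none of 20 values tested stood apart by Dixon's criterion. These values were the free RNA over nuclei ratio and the centre of each gene. Levels per gate were not put to this criterion. Poisson intervals cover counting error only.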

Additional observations from a re-analysis of the deposited data

How the results depend on the processing

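The counts of genes called by the edgeR fit of all genes were 0 in spermatogonia, 2476 in early prophase, 0 in spermatocytes, 2 in round spermatids and 0 in elongating spermatids, and these counts moved widely. Leaving out 1 library at a time gave 5 to 446 calls in spermatogonia, 333 to 4553 calls in early prophase, 11 to 4600.0 calls in spermatocytes, 6 to 1782 calls in round spermatids, 1 to 2504 calls in elongating spermatids, highest without WT replicate 1 or 2 in each gate, with the lone remaining library of a genotype assumed to vary like the others. DESeq2 called 59 in spermatogonia, 1594 in early prophase, 898 in spermatocytes, 22 in round spermatids, 14 in elongating spermatids. Without a filter on low counts 121 genes were called in spermatogonia and 75 in round spermatids, without the upper gene limit 338 in spermatogonia and 2744 in spermatocytes, without Scrublet doublets 133 in spermatogonia, and with free RNA subtracted 383 in spermatocytes. The cause of these moves was not tested.

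Libraries with the same replicate number shared no source in the labels, and their deviations from the group means correlated at -0.26 to -0.15 over genes, so the numbers did not pair them. With the replicate block 0 genes were called in spermatogonia, 1495 in early prophase, 184 in spermatocytes, 2 in round spermatids, 9 in elongating spermatids, and with the numbers crossed, an alternative chosen after seeing the data, 728 in spermatogonia, 4270.0 in early prophase, 3718 in spermatocytes, 12 in round spermatids, 79 in elongating spermatids. In early prophase 3 of the 10 genes were called with the replicate block and 7 with the crossed one, beside 1495 and 4270.0 of all genes. Of the 7, 1 was Cadm2, whose call carries no weight because of how it was selected. Nothing is read from these counts.

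Log2 differences of the 10 genes that changed sign, none of which had passed the test, are given with their values under each setting. Without a filter on low counts they were Cadm2 in spermatogonia (0.11), Pcdh10 in elongating spermatids (0.0198). With the replicate block they were Cadm2 in spermatogonia (0.0406), Cntn3 in round spermatids (0.0256), Pcdh10 in round spermatids (0.0416), Lrrtm3 in round spermatids (0.000630), Pcdh10 in elongating spermatids (0.16). With the stricter gate they were Cadm2 in spermatogonia (0.0153), Opcml in early prophase (0.16). Without the upper gene limit they were Cadm2 in spermatogonia (0.00460). Without Scrublet doublets they were Cadm2 in spermatogonia (0.0542). With the crossed block they were Cntn3 in round spermatids (0.0271), Pcdh10 in round spermatids (0.0555), Lrrtm3 in round spermatids (0.00103), Pcdh10 in elongating spermatids (0.16). With free RNA subtracted they were Pcdh10 in round spermatids (0.00409), Cntn3 in elongating spermatids (1.16), Negr1 in elongating spermatids (0.19), Cntnap2 in elongating spermatids (0.0768), Cntnap5a in elongating spermatids (0.29), Cadm2 in elongating spermatids (1.18).

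Leaving out 1 library at a time also changed signs, with ranges of log2 difference of -1.17 to 0.27 for Pcdh10 in spermatogonia, -0.37 to 0.55 for Cadm2 in spermatogonia, -1.98 to 0.45 for Opcml in spermatogonia, -1.60 to 0.88 for Lrrtm3 in spermatogonia, -1.20 to 0.20 for Pcdh10 in early prophase, -1.06 to 0.11 for Lrrtm3 in spermatocytes, -0.32 to 0.0517 for Cntn5 in round spermatids, -0.59 to 0.69 for Cntn3 in round spermatids, -0.55 to 0.20 for Negr1 in round spermatids, -0.52 to 0.0935 for Pcdh9 in round spermatids, -0.61 to 0.80 for Pcdh10 in round spermatids, -0.74 to 0.15 for Cntnap5a in round spermatids, -0.76 to 0.80 for Lrrtm3 in round spermatids, -0.58 to 0.17 for Cntn3 in elongating spermatids, -0.94 to 0.13 for Pcdh9 in elongating spermatids, -0.58 to 0.92 for Pcdh10 in elongating spermatids, -0.46 to 0.11 for Cntnap5a in elongating spermatids, -0.72 to 0.72 for Lrrtm3 in elongating spermatids.

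All 10 genes lay lower in free RNA under each of its alternatives, a description only since the genes were selected from these nuclei, and each kept its highest gate among the germ gates in 10 of 10 cases under each alternative tried for the stages. In Sertoli nuclei the number of the 10 genes with a lower mean in Dhx37-/- libraries was 7 to 9 under the other alternatives and 5 to 9 when a library was left out. With 2 libraries per genotype, WT libraries that differ from each other and 22 Sertoli nuclei in WT replicate 2, small differences were not detectable.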
